A study of Mus musculus with 33 samples.

Results

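The genes described here code for the contractile apparatus of smooth muscle: the actins Acta2 and Actg2, the proteins that bind or regulate the thin filament (Tagln, Cnn1, Cald1, Tpm1 and Tpm2), the myosin chains Myh11 and Myl9, and the intermediate filament protein desmin (Des). They were chosen by symbol, and all 10 were among the 17120 genes of the count table. Levels are CPM (counts scaled to a common library total) after TMM normalization, given as mean ± SD of 3 libraries unless every library is listed.

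In smooth muscle, filaments of the actins encoded by Acta2 and Actg2 slide along filaments built from the myosin heavy chain encoded by Myh11. Phosphorylation of the regulatory light chain encoded by Myl9 starts the cycle, and calponin (Cnn1), caldesmon (Cald1), transgelin (Tagln) and the tropomyosins tune it on the thin filament. Many of these genes are driven by serum response factor (SRF), which binds a DNA element called the CArG box and works with myocardin in smooth muscle or with the myocardin-related transcription factors (MRTFs), which sense the pool of free actin, in many other cells. TGFβ is a known inducer of the programme in fibroblasts and mesenchymal progenitors. Acta2, Tagln, Cald1, the tropomyosins and Myl9 are therefore also used by contractile fibroblasts and young mesenchyme, whereas Myh11 is held to be more restricted to smooth muscle. Desmin is used by skeletal and cardiac muscle as well.

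The libraries come from mouse embryonic stem cells that carry the ScxGFP tendon reporter, taken through paraxial mesoderm, harvested at culture day 6 (D6) as the group PM. From D6 they were induced with either CD1530, an agonist of retinoic acid receptor gamma, or AGN 193109 (AGN), which acts on all retinoic acid receptors as an inverse agonist. Per the study's methods, both induction media also held TGFβ1, the smoothened agonist SAG and FGF2, so the 2 conditions shared these and differed in the retinoid ligand. The PM medium held the Wnt pathway activator CHIR and the BMP inhibitor LDN-193189, and the methods describe PM cultures with AGN 193109 or all-trans retinoic acid added, without the labels saying what these PM cultures received. Each condition was sampled on 5 occasions, at D6.25 and D6.75, at D7.5 and D8.5, and last at D10, which with PM makes 11 groups of 3 libraries and 33 libraries in all. The starting PM libraries are the same for both conditions, and the induced cultures were monolayers measured in bulk, in which more cells of a type and more RNA per cell cannot be told apart.

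Total counts ran from 17.1 M to 22.8 M per library, except in AGN at D8.5 replicate 1 with 38.1 M. Replicates correlated across genes at 0.9927 to 0.9977. CD1530 at D6.75 replicate 1 stood apart, with the lowest correlation to both other replicates of its group (0.9927). Without it the count of members called was 4 in place of 3 between the conditions at D6.75, and it stayed at 7 and 9 for the CD1530 steps into and out of that day and at 9 for the interaction over 5 days. The marker list counts at D6.75 include it. Of 7 paraxial mesoderm markers, all 7 were in the table, and their summed level in PM ranged from 62.8 to 66.7 CPM. At D10 against PM, 4 of them were lower and 2 higher in each condition (39.9% and 43.3% of all genes in CD1530, 40.4% and 41.6% in AGN). The study's methods call the 3 libraries of a group biological replicates, the labels do not say whether they came from separate cultures, and the p-values measure the spread between these libraries.

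By D10 all 10 genes had risen above their PM level, with CD1530 and with AGN alike. For 3 of them, Actg2, Tagln and Myh11, every PM library lay below the low-count filter of the table. They are in the table only through later groups, so a rise above PM in some later libraries was given in advance. Their part in the count and the medians is therefore no independent evidence of a rise. Of all 17120 genes, 83.2% were called between D10 and PM in CD1530, 43.3% higher and 39.9% lower, and in AGN 82% were called, 41.6% higher and 40.4% lower (edgeR's quasi-likelihood F test, adjusted p under 0.05). In CD1530 the median log2 fold change of the 10 genes was 5.03, beside 0.04 over all genes. For AGN the median was 4.82, beside 0. Both comparisons rest on the same 3 PM libraries.

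**Figure D1:**
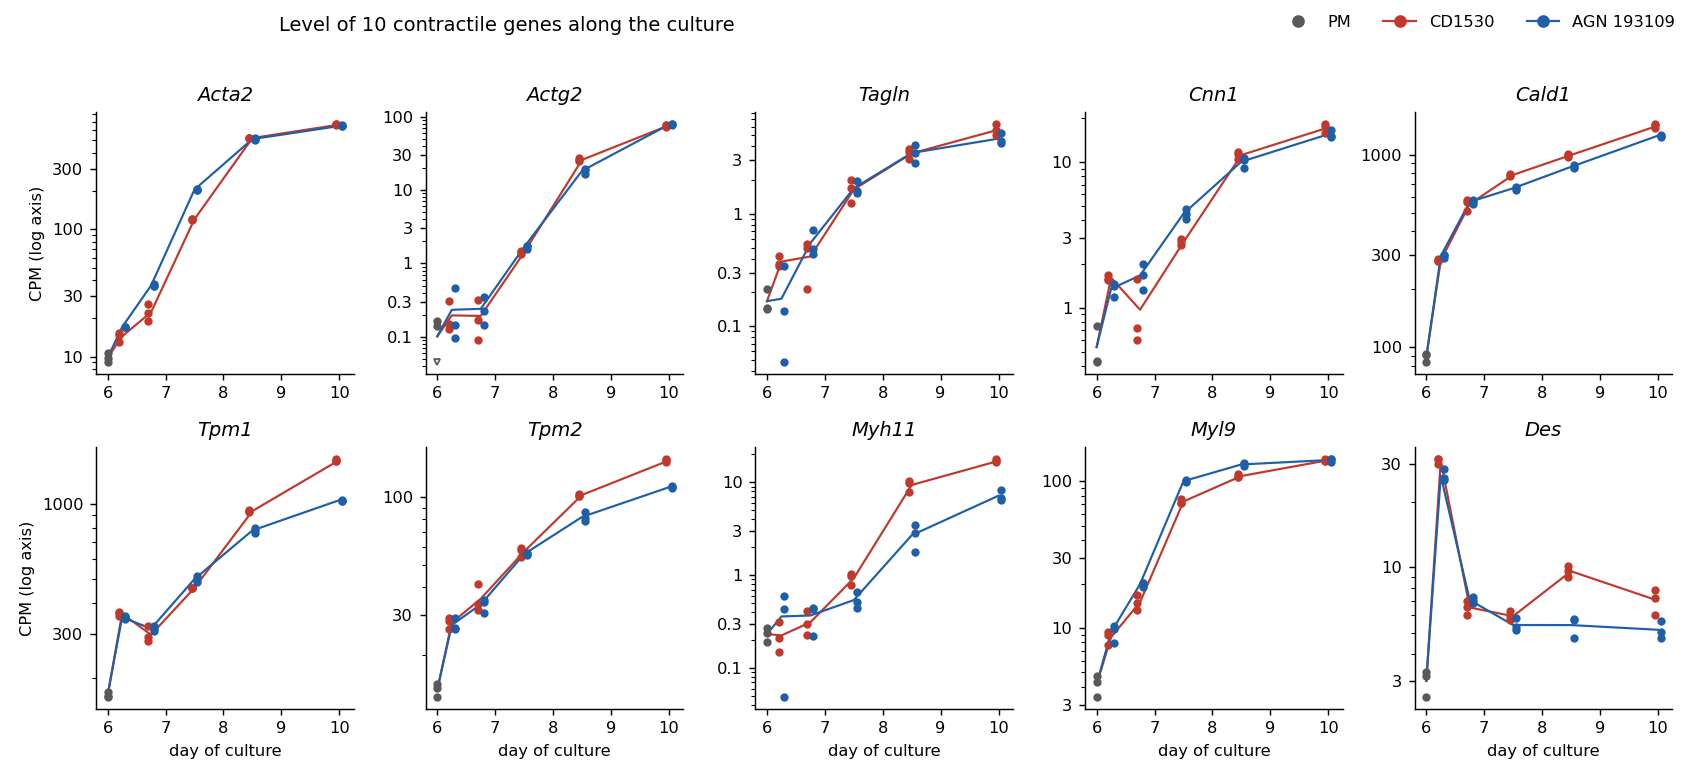
Level of each gene in CPM (log axis) against the day of culture, where points are single libraries (PM grey, CD1530 red, AGN blue), lines join the group means and an open triangle marks the PM library with 0 counts of Actg2. In 9 panels the D10 libraries lie above every earlier library of the same condition, whereas Des was highest at D6.25. Myh11, Tpm1 and Tpm2 end higher in CD1530.

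Acta2, which encodes the smooth muscle alpha actin that is also the usual marker of myofibroblasts, lies on chromosome 19 from 34241090 to 34255590 on the minus strand (GRCm38). It was at 9.71, 10.6 and 9.1 CPM in the PM libraries. By D10 it had reached 670, 668 and 654 CPM in CD1530 and 646, 642 and 654 CPM in AGN. No D10 library came near a PM library, and the ranges of the conditions at D10 met. This was 67.4-fold above PM in CD1530 (log2 fold change 6.08 ± 0.06 SE, adjusted p = 5.48e-46, edgeR) and 65.8-fold in AGN (6.04 ± 0.06, adjusted p = 5.8e-46, edgeR). Every step of the course was a rise. The steepest were from D6.75 to D7.5, 5.37-fold in CD1530 and 5.69-fold in AGN, and from D7.5 to D8.5, 4.34-fold and 2.49-fold. Between D8.5 and D10 the level changed by 1.27-fold in each condition.

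RefSeq promoter windows of GRCm38.p6, from 250 bases before to 50 after the start of a transcript, were available for 7 of the 10 genes (8 windows) and were searched on both strands for 2 motifs known from this gene class. An exact CArG box was in the window of Myl9 alone, and 1.63% of all 32851 windows held one. A CArG box with 1 base of its A/T core replaced by G or C was in the windows of Acta2 and Myl9, against 8.5% of windows. The element CATTCC, read by TEAD factors, was in the windows of Acta2, Cald1 and Tpm1, against 14.7% of windows. The windows of Cnn1, Tpm2 and Des held none of these motifs, and sequence outside the windows was not searched. The part of the motifs in the rise was not tested. The stretches are shown on the strand of the gene with the motif in capitals. A match to these letters describes the sequence and does not show a bound site.
Acta2, chr19:34255438-34255467, minus strand, CArG box with 1 changed core base: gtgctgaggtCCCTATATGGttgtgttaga
Acta2, chr19:34255388-34255417, minus strand, CArG box with 1 changed core base: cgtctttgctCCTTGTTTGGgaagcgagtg
Acta2, chr19:34255504-34255529, minus strand, CATTCC on the opposite strand: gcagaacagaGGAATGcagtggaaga
Myl9, chr2:156775293-156775322, plus strand, exact CArG box: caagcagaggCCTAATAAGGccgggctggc
Myl9, chr2:156775355-156775384, plus strand, CArG box with 1 changed core base: cattcttctgCCTTGTAAGGccgggcggcc
Cald1, chr6:34598341-34598366, plus strand, CATTCC on the opposite strand: gcatgcctagGGAATGacaggcatct
Tpm1, chr9:67049254-67049279, minus strand, CATTCC on the opposite strand: gctgtcctaaGGAATGcggtcgcccc

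Actg2, the gamma actin of enteric smooth muscle (chromosome 6, 83512905 to 83536265, minus strand), had the widest range of the 10. The PM libraries held 0, 3 and 3 counts, at or under the floor of 3 counts per library that was used as the limit of detection. It stayed near that floor at D6.25 and D6.75, with 2 to 10 counts in each of the 12 libraries, and at these days no step passed the test. At D7.5 it was at 1.42, 1.48 and 1.34 CPM in CD1530 and at 1.71, 1.58 and 1.73 CPM in AGN. The next step was the largest of any gene in the set, 18.3-fold in CD1530 (log2 fold change 4.19 ± 0.13, adjusted p = 9.38e-27, edgeR) and 11-fold in AGN (3.46 ± 0.13, adjusted p = 5.21e-24, edgeR). At D10 it reached 77.5, 78.4 and 73.1 CPM in CD1530 and 78.6, 79.5 and 76.3 CPM in AGN, at least 512-fold and at least 525-fold above a PM level set to the floor. No 150-base window of the longest protein-coding transcript of Acta2 or of Actg2 was shared exactly with another annotated gene. The study's methods give paired reads of 150 bases, and the length of the reads as counted was not checked.

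Among the thin-filament genes, Cald1 (chromosome 6, 34598500 to 34775473, plus strand), whose caldesmon product inhibits actomyosin, was well above PM at the first sampled day. It was at 88.7 ± 4.4 CPM in PM and at 280, 288 and 279 CPM in CD1530 and 300, 291 and 299 CPM in AGN at D6.25. This was 3.18-fold and 3.34-fold above PM after 0.25 days of induction (log2 fold change 1.67 ± 0.04 and 1.74 ± 0.04, adjusted p = 1.75e-32 and 4.88e-33, edgeR). It rose at each later step and ended 15.9-fold above PM in CD1530 and 14.1-fold in AGN.

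Tpm1 (chromosome 9, 67022590 to 67049406, minus strand) and Tpm2 (chromosome 4, 43514711 to 43523765, minus strand) encode tropomyosins, which lie along the actin filament and set access for myosin. Both are used in many cells in isoforms that a count per gene does not separate. At D6.25 Tpm1 was 2.13-fold above PM in CD1530 and 2.06-fold in AGN. It then fell at D6.75, by 0.28 on the log2 scale in CD1530 (SE 0.03, adjusted p = 5.16e-09, edgeR) and by 0.15 in AGN (SE 0.03, adjusted p = 0.000334, edgeR), and rose at every step after that. At D10 it was at 1490, 1510 and 1490 CPM in CD1530 and 1040, 1030 and 1030 CPM in AGN. Tpm2 rose at every step of both courses, from 14 CPM in PM to 144, 148 and 146 CPM in CD1530 and 111, 112 and 110 CPM in AGN at D10. For both genes the lowest CD1530 library at D10 lay above the highest AGN library.

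Cnn1 (chromosome 9, 22099216 to 22109630, plus strand), the calponin of differentiated smooth muscle, was scarce at first. The PM libraries were at 0.431, 0.425 and 0.754 CPM, from 9 to 14 counts each. At D6.25 it was 3.01-fold above PM in CD1530 and 2.53-fold in AGN. In CD1530 it then fell at D6.75 by 0.73 on the log2 scale (SE 0.24, adjusted p = 0.00999, edgeR), where the libraries were at 1.58, 0.727 and 0.597 CPM. The library at 1.58 CPM is replicate 1, the one that stood apart. Without it the fall was 1.27 (adjusted p = 5.93e-05, edgeR), and without replicate 2 or replicate 3 it was 0.57 and 0.47, which did not pass the test (adjusted p = 0.0683 and 0.118, edgeR). From D7.5 on Cnn1 rose at each step in both conditions, to 15.9, 17.6 and 18.2 CPM in CD1530 and 15.1, 14.9 and 16.5 CPM in AGN at D10, 32.2-fold and 29.1-fold above PM.

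Tagln encodes transgelin (SM22 alpha), an actin-bundling protein and one of the earliest markers of smooth muscle, and is usually abundant where Acta2 is. In this table it was scarce. The PM libraries held 3, 3 and 4 counts, and at D10 it was at 6.31, 5.01 and 5.57 CPM in CD1530 and 4.31, 4.46 and 5.29 CPM in AGN, from 69 to 125 counts each. The rise over PM was 33-fold in CD1530 (log2 fold change 5.04 ± 0.3, adjusted p = 1.03e-18, edgeR) and 27.4-fold in AGN (4.78 ± 0.32, adjusted p = 2.4e-17, edgeR). Its locus (chromosome 9, 45929619 to 45936058, minus strand) is crowded: 67.9% of its exonic bases overlap exons of genes on the opposite strand, 62.4% those of the antisense gene Gm48529 and 5.43% those of Pcsk7. Gm48529 was not in the table and Pcsk7 was. Whether the counting used strand is not stated, and the part of this overlap in the low Tagln counts was not tested. Small steps of Tagln rested on single libraries. The rise at D6.25 in CD1530 (log2 fold change 1.17 ± 0.51, adjusted p = 0.0415, edgeR) was 1.04 to 1.22 and no longer called without PM replicate 1 or 2 or without any one of the CD1530 replicates at D6.25 (adjusted p up to 0.114, edgeR). In AGN the value at D6.25 was 0.08 ± 0.61. Its step from D6.25 to D6.75 in AGN, 1.6 ± 0.47, was 2.45 without AGN D6.25 replicate 2. The step from D8.5 to D10 in AGN, 0.43 ± 0.18 (adjusted p = 0.0377, edgeR), lost its call without AGN D8.5 replicate 1 or 2 or AGN D10 replicate 2 or 3, where it was 0.43, 0.32, 0.46 and 0.33.

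Myl9 (chromosome 2, 156775420 to 156781658, plus strand), the regulatory light chain of smooth muscle and non-muscle myosin, rose alongside Acta2. It was at 3.4, 4.72 and 4.31 CPM in PM and at 139, 142 and 138 CPM in CD1530 and 142, 142 and 136 CPM in AGN at D10. This was 33.6-fold above PM in CD1530 and 33.7-fold in AGN, with ranges that met. Its largest step lay between D6.75 and D7.5, 4.86-fold in CD1530 and 5.03-fold in AGN. In AGN the step between D8.5 and D10 was 0.1 ± 0.05 on the log2 scale and did not pass the test (adjusted p = 0.117, edgeR). It did pass with DESeq2 size factors, in a fit of the compared groups alone and in DESeq2. Over all alternatives it ranged from 0 to 0.13.

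Myh11 (chromosome 16, 14194535 to 14291372, minus strand), the heavy chain by which mature smooth muscle is usually defined, rose late. There were 4 to 5 counts in each PM library and 1 to 13 in each library at D6.25 and D6.75, where no step passed the test. At D7.5 the CD1530 libraries were at 0.98, 1.02 and 0.78 CPM and the AGN libraries at 0.662, 0.511 and 0.444 CPM. The rise from D6.75 passed the test in CD1530 (log2 fold change 1.55 ± 0.4, adjusted p = 0.00207, edgeR), and in AGN it was 0.56 ± 0.45 (adjusted p = 0.385, edgeR). From D7.5 to D8.5 it rose 10.1-fold in CD1530 and 5.19-fold in AGN. At D10 it was at 17.8, 16.9 and 16.5 CPM in CD1530, 72.1-fold above PM, and at 6.5, 6.8 and 8.26 CPM in AGN, 30.4-fold above PM. Every CD1530 library at D10 lay above every AGN library.

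Des (chromosome 1, 75360329 to 75368579, plus strand) took another course. The PM libraries were at 3.3, 3.16 and 2.53 CPM, and at D6.25 the level was 31.5, 29.8 and 31.4 CPM in CD1530 and 25.8, 25.2 and 28.3 CPM in AGN. This rise, 10.2-fold in CD1530 (log2 fold change 3.35 ± 0.1, adjusted p = 1.85e-28, edgeR) and 8.75-fold in AGN (3.13 ± 0.1, adjusted p = 4.19e-27, edgeR), was the largest of the 10 genes at D6.25. At D6.75 the level had dropped again, to 6.57, 7 and 6.02 CPM and to 7.27, 6.85 and 7.09 CPM. The log2 scale fall was 2.24 in CD1530 (adjusted p = 1.01e-23, edgeR) and 1.9 in AGN (adjusted p = 4.55e-21, edgeR). At D10 Des was at 7.88, 6 and 7.2 CPM in CD1530 and 5.06, 5.66 and 4.75 CPM in AGN, 2.33-fold and 1.71-fold above PM. Of its exonic bases, 5.86% overlap the antisense gene Gm15179, which was not in the table.

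The steps show the order in which the set moved. Actg2, Tagln and Myh11, in the table only through later groups, are part of every step count. Their rises are no independent evidence that the set rose. From PM to D6.25, 8 of 10 genes rose in CD1530 (34.5% of all genes were called higher at this step and 67.8% in either direction) and 7 of 10 in AGN (35% and 68.1%). Tagln, called in CD1530 alone, accounts for the difference, and this was not a test between the conditions. The other exceptions were Actg2 and Myh11. In AGN their log2 fold changes were 1.21 ± 0.64 and 0.64 ± 0.54, and each passed the test when AGN D6.25 replicate 2 was left out (1.57 and 1.14, adjusted p = 0.0318 and 0.0394, edgeR). From D6.25 to D6.75 the set split, with 4 genes up and 3 down in CD1530 (25.8% and 20.1% of all genes, 45.9% in all) and 5 up and 2 down in AGN (24.9% and 18.8%, 43.7% in all). The genes that rose in both were Acta2, Cald1, Tpm2 and Myl9, and those that fell in both were Tpm1 and Des. The rise of Tpm2 in CD1530 at this step was 0.35 on the log2 scale, and 0.23 without CD1530 D6.75 replicate 1.

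From D6.75 to D7.5, 9 genes rose in CD1530 (18.7% of all genes rose and 34.2% were called) and 8 in AGN (14.2% and 30.3%), where Des fell (16% of all genes). From D7.5 to D8.5 all 10 rose in CD1530 (18.8% of all genes rose and 36.5% were called) and 9 in AGN (21.4% and 42.1%), all but Des, which was 0.02 ± 0.11. From D8.5 to D10, 9 rose and Des fell in CD1530 (27.4% and 29.9% of all genes, 57.3% in all), and 8 rose and 0 fell in AGN (29.9% and 29.5%, 59.4% in all). The median log2 fold change of the 10 genes was 1.55 in CD1530 and 1.08 in AGN from D6.75 to D7.5, and 0.57 and 0.43 from D8.5 to D10, while the median over all genes lay between -0.03 and 0.01 at these steps. These medians include Actg2, Tagln and Myh11, which passed the low-count filter only through later groups. From D6.75 to D7.5 the other members ran from -0.13 (Des) to 2.43 (Acta2) in CD1530. In AGN they ran from -0.39 (Des) to 2.51 (Acta2), with Tpm2 at 0.7 in CD1530 and 0.74 in AGN.

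**Figure D2:**
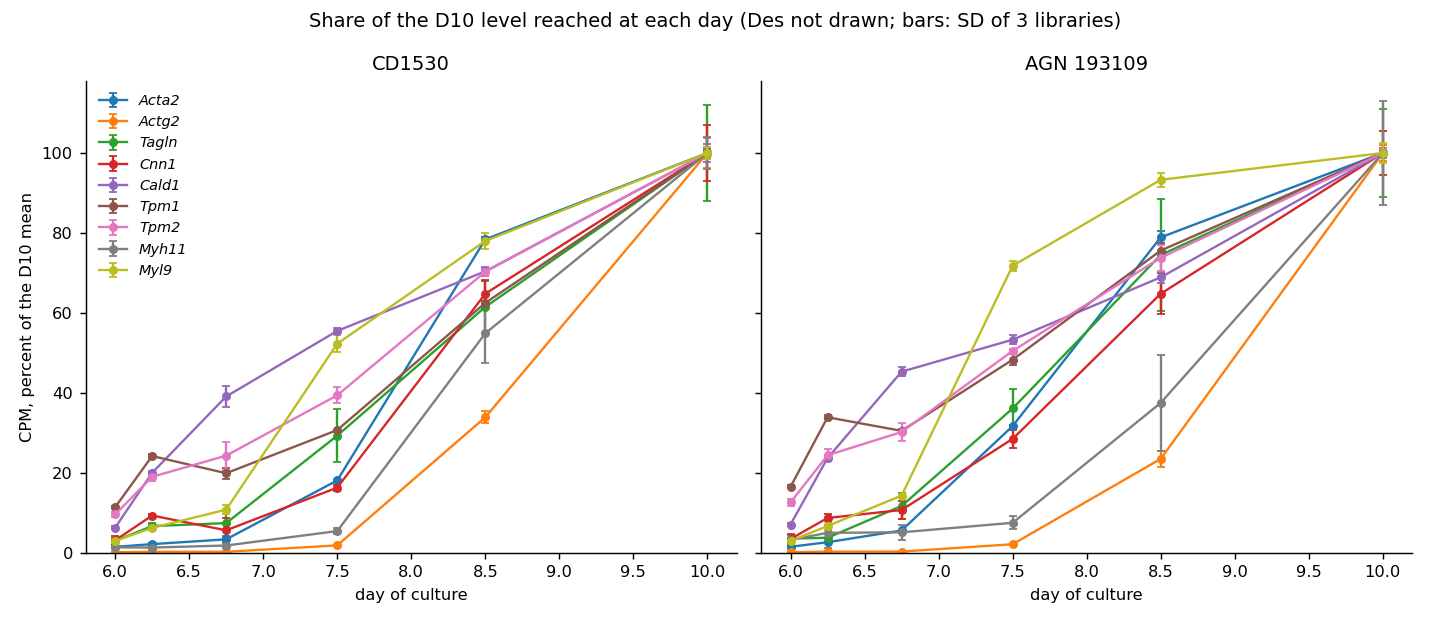
Level as a percent of the D10 mean of the same condition against the day of culture, for 9 genes, with the SD of 3 libraries as bars. Des is not drawn, since at D6.25 it stood at 440% in CD1530 and 513% in AGN. Cald1 and the tropomyosins hold the highest shares at D6.75, Myl9 and Acta2 climb between D6.75 and D8.5, and Actg2 and Myh11 come last.

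Set against each gene's own D10 level, the early and late members separate. At D6.75 in CD1530, Cald1 stood at 39.1% ± 2.6 of its D10 mean, Tpm2 at 24.3% ± 3.5 and Tpm1 at 19.9% ± 1.4. At the same day Acta2 stood at 3.36% ± 0.5, Myh11 at 1.82% ± 0.54 and Actg2 at 0.252% ± 0.15. Cald1 and the tropomyosins, which many cell types use, thus held larger shares of their D10 level at this day than the actins and Myh11. These shares include the starting level. In PM, Tpm1 already stood at 11.4% of its CD1530 D10 mean, Tpm2 at 9.59% and Cald1 at 6.27%, against 1.48% for Acta2. At D7.5 Myl9 had reached 52.3% ± 2.1 in CD1530 and 71.8% ± 1.3 in AGN, and Acta2 18.1% ± 0.15 and 31.7% ± 0.15. At D8.5 Acta2 was at 78.4% ± 0.53 and 78.9% ± 1.7, while Actg2 was at 33.9% ± 1.5 in CD1530 and 23.5% ± 2 in AGN. A percent of D10 depends on the D10 level of its own condition, so a gap between conditions on this scale can come from either end.

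Levels of different genes were compared only per kb of annotated exons. In PM the order was led by Tpm1 with 26.2 ± 0.56 CPM per kb, followed by Cald1 with 7.37 ± 0.37, Tpm2 with 4.81 ± 0.31 and Acta2 with 4.47 ± 0.35. The last 2 did not differ beyond their SD. At D10 Acta2 led, with 302 ± 4.1 CPM per kb in CD1530 and 295 ± 2.9 in AGN. Tpm1 came second with 230 ± 1.7 and 159 ± 0.65, and Myl9 and Cald1 followed with 120 ± 1.9 and 117 ± 2.2 in CD1530, a pair within its spread. Tpm2 and Actg2 were another such pair in CD1530, at 50.2 ± 0.72 and 49 ± 1.8. Far below came Cnn1 with 6.29 ± 0.44 CPM per kb, Tagln with 2.83 ± 0.33, Myh11 with 2.25 ± 0.088 and Des with 1.87 ± 0.25 in CD1530. Among these low genes, Myh11 is held to be more restricted to smooth muscle, whereas Tagln and Des are also used by other cells. The part of the opposite-strand overlap in the low Tagln level was not tested. With the longest transcript as the length in place of all exons, Tpm1 came first and Acta2 second at D10. The pairs named above also moved apart. At D10 in CD1530, Cald1 was then at 295 and Myl9 at 123 CPM per kb, and Tpm2 at 67.1 and Actg2 at 57.2. In PM, Tpm2 was at 6.44 and Acta2 at 4.82, so the order of these genes depends on the length used.

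**Figure D3:**
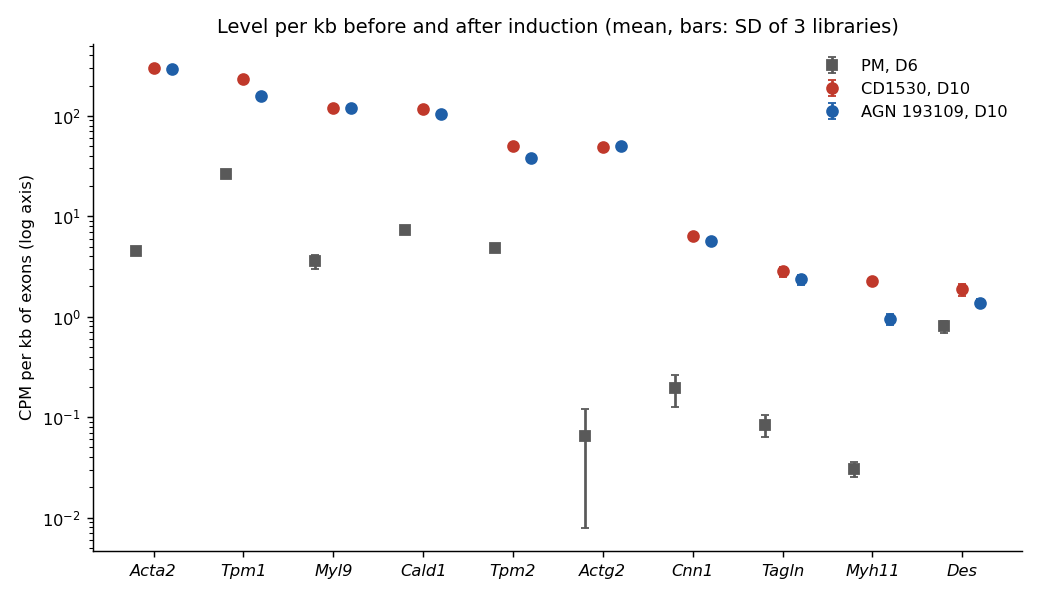
CPM per kb of exons (log axis) for each gene in PM (grey squares) and at D10 in CD1530 (red) and AGN (blue), mean with the SD of 3 libraries. At D10, 6 genes lie between 38.2 and 302 CPM per kb and the other 4 between 0.946 and 6.29.

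The comparison of CD1530 with AGN at each day sets an agonist against an inverse agonist. No group was induced without a retinoid ligand, so a difference cannot be assigned to either ligand alone. Equal levels likewise do not show that the ligands left a gene unchanged. Acta2, Cnn1 and Myl9 were lower in CD1530 at D6.75 and D7.5, and from D8.5 on Myh11, Tpm1, Tpm2, Cald1 and Des were higher in CD1530. At D6.25, 1 of 10 genes was called, Acta2, which was lower in CD1530 (0.695% of all genes were called lower, 1.23% higher and 1.92% in either direction). At D6.75 there were 3, all lower in CD1530 (10% called lower, 7.94% higher, 18% in all), or 4 without CD1530 D6.75 replicate 1, when Tpm1 joined them at -0.14. With any 1 library of that day left out the count ranged from 2 to 4. At D7.5 there were 5, with 4 lower and 1 higher (11.8% and 15.2%, 26.9% in all). At D8.5 the count was 7, with 6 higher and 1 lower (20.4% and 19.6%, 40% in all). At D10 it was 5, all higher (22.7% called higher, 24% lower, 46.6% in all). The median log2 fold change of the set went from -0.02, -0.28 and -0.07 at D6.25, D6.75 and D7.5 to 0.23 and 0.22 at D8.5 and D10, while that of all genes stayed between -0.02 and 0.01. The count of 5 of 10 at D10 lay near the 46.6% of all genes.

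**Figure D4:**
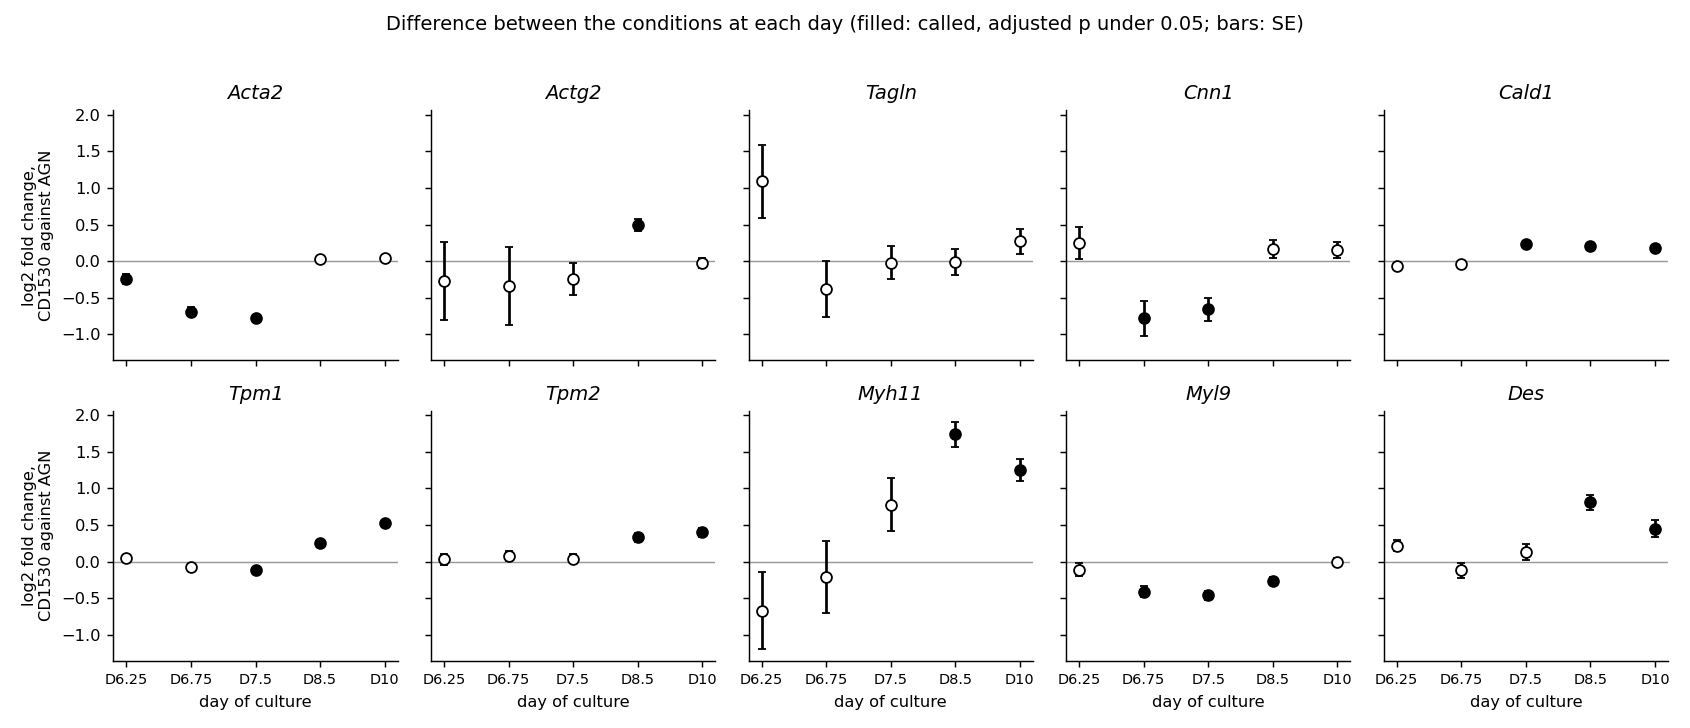
Log2 fold change of CD1530 against AGN for each gene at the 5 sampled days, where filled points passed the test (adjusted p under 0.05, edgeR), open points did not, and bars are the SE. Acta2, Cnn1 and Myl9 lie below 0 at D6.75 and D7.5 and reach or near 0 by D10, whereas Tpm1, Tpm2, Myh11 and Des lie above 0 at D8.5 and D10.

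For the actins the differences that passed the test lay before D10. At D6.75 Acta2 was at 25.8, 22 and 19.2 CPM in CD1530 and 35.8, 35.6 and 37 CPM in AGN, and at D7.5 at 120, 121 and 119 CPM against 205, 204 and 206 CPM. All libraries of CD1530 were below all of AGN at both days. The log2 fold changes were -0.69 ± 0.06 (adjusted p = 1.29e-12, edgeR) and -0.78 ± 0.05 (adjusted p = 1.24e-17, edgeR), or 1.62-fold and 1.71-fold lower in CD1530. A day later the levels had met, at 517, 524 and 521 CPM against 500, 522 and 511 CPM (0.03 ± 0.04, adjusted p = 0.665, edgeR), and at D10 the value was 0.04 ± 0.04 (adjusted p = 0.518, edgeR). The call at D6.25, -0.24 ± 0.07 with an adjusted p of 0.0495 (edgeR), was lost without CD1530 D6.25 replicate 1 (-0.18, adjusted p = 0.365) or 3 (-0.26, adjusted p = 0.0997), and without any one of the AGN replicates of that day (-0.24 each, adjusted p from 0.131 to 0.153, edgeR). Actg2 was higher in CD1530 at D8.5 alone, with 25.7, 27.1 and 24.9 CPM against 19.6, 18.8 and 16.6 CPM (0.49 ± 0.08, adjusted p = 5.67e-06, edgeR), and at D10 it was -0.03 ± 0.07.

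Myl9 moved with Acta2 but kept its gap longer. It was lower in CD1530 by 0.41 ± 0.07 on the log2 scale at D6.75 (adjusted p = 5.98e-05, edgeR), by 0.46 ± 0.06 at D7.5 (adjusted p = 9.27e-09, edgeR) and by 0.26 ± 0.05 at D8.5 (adjusted p = 9.41e-05, edgeR). At D7.5 the libraries were at 76.4, 71.7 and 71.2 CPM in CD1530 and 102, 98.5 and 101 CPM in AGN, without overlap. At D10 the difference was 0 ± 0.05. Cnn1 was lower in CD1530 at D7.5, with 2.94, 2.69 and 2.82 CPM against 4.08, 4.79 and 4.39 CPM (-0.66 ± 0.16, adjusted p = 0.00152, edgeR). At D6.75 its value was -0.78 ± 0.24 (adjusted p = 0.0174, edgeR) with overlapping libraries. It was -1.31 without CD1530 D6.75 replicate 1 and did not pass the test without CD1530 replicate 2 (-0.62, adjusted p = 0.0869), CD1530 replicate 3 (-0.52, adjusted p = 0.136) or AGN replicate 2 (-0.62, adjusted p = 0.131, edgeR) of that day. A fit of the compared groups alone gave -0.77 with an adjusted p of 0.273 (edgeR). Tagln passed the test at none of the 5 days, and its adjusted p was lowest at D10 (0.27 ± 0.17, adjusted p = 0.216, edgeR).

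Myh11 showed the largest difference between the conditions. At D8.5 it was at 7.93, 9.9 and 10.3 CPM in CD1530 and 3.44, 1.78 and 2.86 CPM in AGN, 3.34-fold higher in CD1530 (log2 fold change 1.74 ± 0.17, adjusted p = 4.41e-11, edgeR). At D10 it was 2.37-fold higher (1.25 ± 0.15, adjusted p = 4.24e-09, edgeR). The libraries of the conditions did not overlap at either day. At D7.5 all CD1530 libraries were above all AGN libraries too, but with 9 to 22 counts per library the difference of 0.78 ± 0.36 did not pass the test (adjusted p = 0.113, edgeR).

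The tropomyosins and caldesmon differed by less and with little spread. Tpm1 was lower in CD1530 at D7.5 (-0.12 ± 0.03, adjusted p = 0.00675, edgeR), higher at D8.5 (0.26 ± 0.03, adjusted p = 2.36e-08, edgeR) and 1.45-fold higher at D10 (0.53 ± 0.03, adjusted p = 3.19e-17, edgeR). Tpm2 was 1.25-fold higher at D8.5 (0.33 ± 0.06, adjusted p = 1.18e-05, edgeR) and 1.32-fold at D10 (0.40 ± 0.06, adjusted p = 1.61e-07, edgeR). Cald1 was higher in CD1530 from D7.5 on, by 0.23 ± 0.04, 0.21 ± 0.04 and 0.18 ± 0.04 on the log2 scale at the 3 days. At D10 its libraries were at 1420, 1380 and 1440 CPM in CD1530 and 1270, 1240 and 1250 CPM in AGN. Des was 1.75-fold higher in CD1530 at D8.5 (0.81 ± 0.1, adjusted p = 2.09e-08, edgeR) and 1.36-fold at D10 (0.45 ± 0.12, adjusted p = 0.00155, edgeR).

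A test of the interaction of condition with day over the 5 days asked whether these differences themselves changed. It passed for 9 of 10 genes, against 48.8% of all genes, and for Tagln it did not (adjusted p = 0.227, edgeR). The smallest adjusted p were those of Acta2 (1.34e-15) and Tpm1 (4.02e-15, edgeR). The interaction with the step from D8.5 to D10 alone passed for 3 of 10 genes, against 26.8% of all genes. The rise of Actg2 was smaller in CD1530 than in AGN by 0.53 ± 0.11 on the log2 scale (adjusted p = 0.00025, edgeR), that of Tpm1 was larger in CD1530 by 0.27 ± 0.05 (adjusted p = 1.77e-05, edgeR) and that of Myl9 by 0.26 ± 0.08 (adjusted p = 0.00796, edgeR). Myh11 joined them without AGN D8.5 replicate 1, the most deeply sequenced library (-0.77, adjusted p = 0.022, edgeR, from -0.49 ± 0.23), and Des without CD1530 D10 replicate 1 (-0.45, adjusted p = 0.0382, edgeR, from -0.36 ± 0.16).

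Further genes of smooth muscle and of the SRF and MRTF type cytoskeleton, taken as a list of 25 genes present in the table, rose in the main as well. At D10 against PM, 23 were higher and 2 lower in CD1530 (43.3% and 39.9% of all genes), with a median log2 fold change of 2.12. In AGN, 21 were higher and 2 lower (41.6% and 40.4%), with a median of 1.87. Those with the largest changes in CD1530 were Pgm5, a partner of the adhesion plaques of muscle, at 5.65 ± 0.13, Lmod1, the leiomodin of smooth muscle, at 4.64 ± 0.29, and Synpo2, an actin-binding protein of the Z-disc, at 4.45 ± 0.16. Between the conditions at D10, 13 were higher and 5 lower in CD1530 (22.7% and 24% of all genes), with a median of 0.23. The list was led by Itga8, the integrin alpha 8 of mesenchyme and smooth muscle, at 1.5 ± 0.09, and Fhl2, an SRF partner, at 1.39 ± 0.06. Mylk, the kinase that phosphorylates the Myl9 product, was lower in CD1530 at D7.5 and D8.5, at -0.71 ± 0.16 and -0.78 ± 0.17 (adjusted p = 0.000784 and 0.000172, edgeR). More of the list went the other way. At D7.5, 9 were higher and 5 lower in CD1530 (15.2% and 11.8% of all genes), with a median of -0.02. At D8.5, 9 were higher and 7 lower (20.4% and 19.6%), with a median of 0.03. Paralogs used outside smooth muscle, 17 genes, had a lower median. In CD1530, 12 were higher and 1 lower at D10 than in PM (43.3% and 39.9% of all genes), with a median of 0.88. In AGN, 13 were higher and 3 lower (41.6% and 40.4%), with a median of 0.71. Cnn2, the broadly expressed calponin, had the largest change among them (3.35 ± 0.04 and 3.23 ± 0.04).

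Of 12 regulators of the programme in the table, 8 were higher and 3 lower at D10 than in PM in each condition. Myocd, the gene of myocardin, was at 0.0967 ± 0.12 CPM in PM and at 1.94 ± 0.29 CPM in CD1530 and 4 ± 0.85 CPM in AGN at D10. Its PM level lay below the low-count filter of the table, so a rise of Myocd in some later libraries was given in advance. Myocd was lower in CD1530 at D10 (log2 fold change -1.03 ± 0.25, adjusted p = 0.000701, edgeR), the day at which Myh11 was higher in CD1530. At D6.75, a value picked out after it was seen, it was lower by 1.58 ± 0.34 (adjusted p = 0.000608, edgeR). Srf lay between 71.2 and 95.9 CPM in all groups, with log2 fold changes between D10 and PM of 0.06 ± 0.05 in CD1530 and -0.06 ± 0.05 in AGN, which did not pass the test. Srf against PM and the MRTF gene Mrtfa are named for their role, after their values were seen. Mrtfa went from 32.9 ± 1.1 CPM in PM to 80.1 ± 3.1 CPM in CD1530 and 54.9 ± 2.8 CPM in AGN, a difference of 0.55 ± 0.05 (adjusted p = 3.49e-11, edgeR). Klf4, a repressor of the contractile genes, fell from 147 ± 4.1 CPM to 32.6 ± 0.61 CPM and 66.1 ± 3.3 CPM and was lower in CD1530 at D10 (-1.02 ± 0.05, adjusted p = 2.21e-19, edgeR). Gata6, a regulator of vascular smooth muscle, endoderm and heart, was at 2.1 ± 0.28 CPM in PM and 46.5 ± 3.4 and 48.7 ± 1.4 CPM at D6.25, and at D10 it was higher in CD1530 (1.32 ± 0.09, adjusted p = 3.99e-16, edgeR).

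Markers of other cell types moved along the course beside the members, and their part in the members' changes was not tested. Of 8 mural (pericyte) markers 7 were in the table, and all 7 rose between PM and D10 in each condition (43.3% of all genes rose in CD1530 and 41.6% in AGN). Their summed level rose from 150 to 167 CPM in PM to 835 to 857 CPM in CD1530 and 866 to 951 CPM in AGN, with Kcnj8 at or under 3 counts in every PM library. Kcnj8 is thus in the table only through later groups, and a rise in some later libraries was given in advance. Between the conditions at D10, 5 of these 7 were higher and 2 lower in CD1530 (22.7% and 24% of all genes). Cspg4, the NG2 proteoglycan, was lower by 1.22 ± 0.1 on the log2 scale. Of 12 skeletal muscle markers 8 were in the table, and their sum was 7.84 to 8.56 CPM in PM, highest at D7.5 (27.8 to 31.2 CPM in CD1530 and 31.8 to 33.7 CPM in AGN) and 8.6 to 8.99 and 9.88 to 10.4 CPM at D10, with Myod1 at or under 3 counts in every D10 library and Myog and Mymk so in PM. At D6.25, when Des peaked, the skeletal sum was 7.96 to 8.51 CPM in CD1530 and 7.75 to 9.03 CPM in AGN, close to PM. Of the 8 skeletal markers, 4 were higher and 2 lower than in PM in each condition, with median log2 fold changes of 0.89 and 0.94. Of all genes, 67.8% were called at this step in CD1530 and 68.1% in AGN, near the share of this list. Of the 8 cardiac markers, 4 were higher and 3 lower at that day in each condition.

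Of 10 cardiac markers 8 were in the table, with a sum of 17 to 19.5 CPM in PM, 23.9 to 24.1 CPM in CD1530 and 21.7 to 23.4 CPM in AGN at D6.25, and 20.9 to 24.9 and 31.4 to 35.1 CPM at D6.75. At D6.75 and D7.5, when Acta2, Cnn1 and Myl9 were lower in CD1530, the cardiac list held 3 and 4 genes lower and none higher in CD1530. The skeletal list held 2 and 4 lower and 1 higher at each day. Of all genes, 10% were lower and 7.94% higher in CD1530 at D6.75, and 11.8% and 15.2% at D7.5. Actc1, the cardiac actin that is in the cardiac list, was -0.91 ± 0.12 at D6.75 and -0.69 ± 0.12 at D7.5. The 7 endothelial markers went the other way, with 7 and 6 higher in CD1530 at these days and sums of 456 to 492 and 441 to 458 CPM against 279 to 293 and 260 to 289 CPM in AGN. Of the 7 mural markers, 4 were lower and 2 higher in CD1530 at D6.75 and 2 lower and 2 higher at D7.5, and the sum at D6.75 was 363 to 446 CPM against 478 to 501 CPM. Of the 7 cartilage markers, 6 were lower in CD1530 at D6.75 and 3 at D7.5, with sums of 512 to 555 and 567 to 586 CPM against 692 to 732 and 787 to 828 CPM. At D8.5 and D10 all 7 were lower, with a sum at D10 of 246 to 253 CPM against 3130 to 3260 CPM. Of the 7 tendon markers 4 were lower and 1 higher at D10, with sums of 14900 to 15600 CPM against 18700 to 19800 CPM. Of all genes, 19.6% were lower in CD1530 at D8.5, and 24% were lower and 22.7% higher at D10. Of 6 genes taken as defining for smooth muscle, 3 of them members (Acta2, Cnn1 and Myh11), all 6 rose between PM and D10 in each condition. Myh11 and Myocd, which are among these, lay below the low-count filter of the table in PM. A rise of both in some later libraries was thus given in advance and is no independent evidence. Of all genes, 43.3% rose in CD1530 and 41.6% in AGN. Between the conditions at D10, 1 of the 6 was higher and 2 were lower in CD1530 (22.7% and 24% of all genes).

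**Figure D5:**
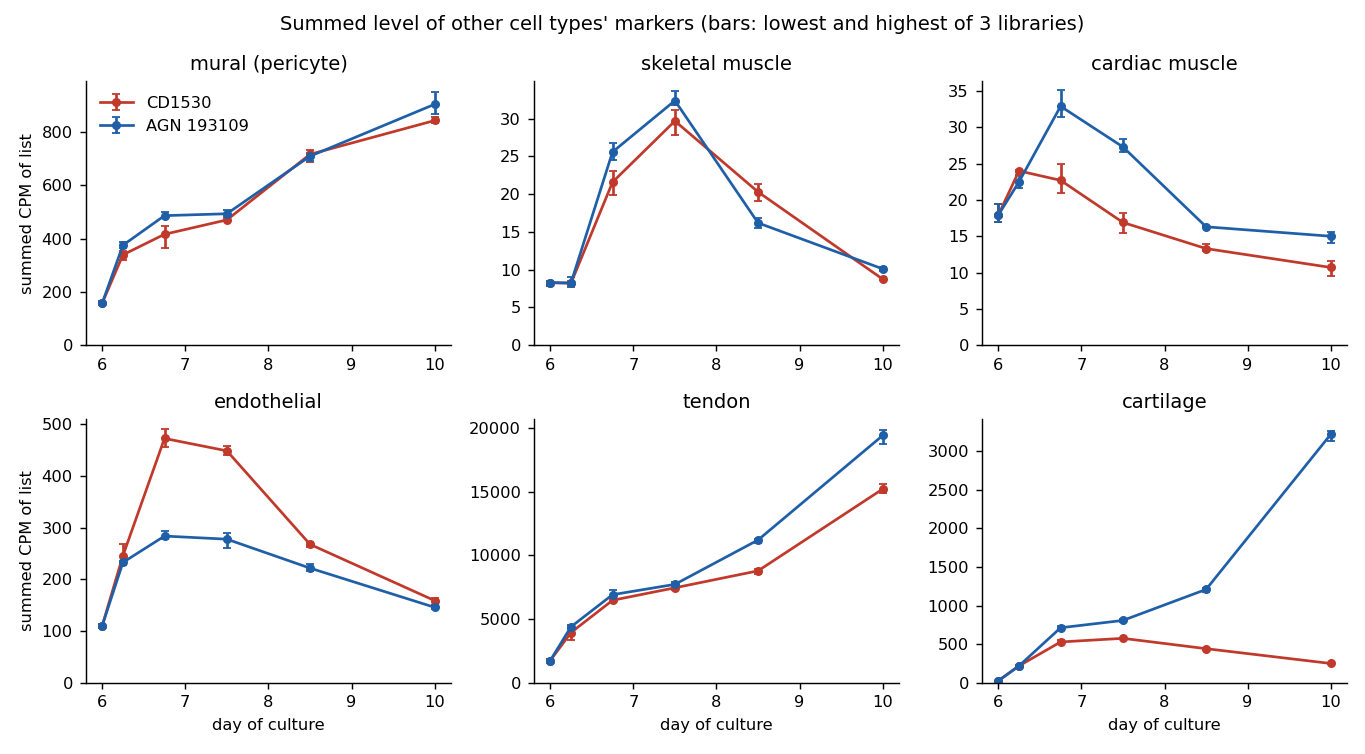
Summed CPM of 6 marker lists against the day of culture in CD1530 (red) and AGN (blue), with bars from the lowest to the highest of 3 libraries and PM as the shared first point. The mural sum rises in both conditions, the skeletal and cardiac sums stay at or under 35.1 CPM, the endothelial sum is higher in CD1530 at D6.75 and D7.5, and the cartilage sum is lower in CD1530 from D6.75 on, by most at D10.

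The members followed each other over the 11 group means of log2(CPM + 1), with Des as the exception. Acta2 had Pearson correlations of 0.98 with Tagln and with Myl9, 0.97 with Cnn1 and 0.96 with Tpm2. The lowest value among the 9 genes other than Des was 0.72, between Cald1 and Myh11, the earliest and one of the latest to rise. Des lay between -0.34 and -0.05 with the others. These values describe 11 points that share their libraries and a common time course. Among genes outside the set, those most like Acta2 over the same points were Fat3 (r = 0.993), Kcnab1 (0.991), Mboat1 (0.985), Srgap2 (0.983) and Klhl42 (0.982), and those most like Tagln were Nexn (0.992), Mgp (0.992), Mboat1 (0.988), Zfp185 (0.986) and Hs6st2 (0.986). Mgp, the matrix Gla protein of vessel wall and cartilage, went from 0.342 CPM in PM to 435 CPM in CD1530 and 441 CPM in AGN at D10.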

How the data were processed

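Raw counts per gene, deposited by the authors as 1 table for 33 libraries, were used as they stand. Per the study's methods the authors aligned reads to GRCm38 with STAR and counted them per gene with featureCounts. Strand setting and handling of multiply aligned reads are not given in the sources used here. A low-count filter had been applied, since the third-highest library of every gene reached at least 0.611 CPM. All 10 members passed that filter, and 3 of them (Actg2, Tagln and Myh11) lay below it in every PM library, so they passed through later groups.

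The fits used edgeR 4.0.16 under R 4.3.3, with DESeq2 1.42.0 as an alternative. One fit held all 33 libraries with 1 mean per group, TMM factors and the robust quasi-likelihood F test. Within each of 19 contrasts, Benjamini-Hochberg adjustment ran over all 17120 genes, and calls are those with an adjusted p under 0.05. The standard error (SE) of a log2 fold change is its size divided by the root of F. Total counts per library were 17116084 to 38120841, and the biological coefficient of variation was 4.68%. A level at or under 3 counts in every library of a group was treated as the floor, which covers counting error only. Of the identifiers, 17117 matched GENCODE M21, which gave positions, exon lengths and overlaps. Promoter stretches are from RefSeq. Same-numbered replicates of compared groups had correlated deviations of -0.13 to 0.2, and in 0 of 17 comparisons did every pair exceed 0.1, so the numbers were not used as pairs.

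The members, gene lists and tests were chosen with earlier results of these data known. Companion list genes are named by a rule, at most 4 per comparison with the largest fold among called genes of at least 50 mean counts. The genes most like Acta2 and Tagln are the 5 with the highest correlation and at least 50 mean counts. The lists also held 3 older symbols of genes that are listed under their current names, and these matched nothing.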

Additional observations from a re-analysis of the deposited data

Results flagged for a closer look

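The difference between CD1530 and AGN changed over the 5 days for 9 of the 10 genes in edgeR's interaction test. The adjusted p was 1.34e-15 for Acta2, 4.02e-15 for Tpm1, 6.6e-07 for Cald1, 2.22e-05 for Des, 3.52e-05 for Myl9, 0.000309 for Tpm2, 0.000344 for Cnn1, 0.000509 for Myh11 and 0.000844 for Actg2. For Acta2, Cnn1 and Myl9 the change was from a lower level in CD1530 at D6.75 and D7.5 to none that passed the test at D10. Tpm1 turned from lower at D7.5 to higher at D8.5 and D10. Of all genes, 48.8% passed the same test.

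Between D8.5 and D10 the step differed between the conditions for Actg2 (adjusted p = 0.00025, edgeR), Tpm1 (1.77e-05) and Myl9 (0.00796). Actg2 rose 2.94-fold in CD1530 and 4.23-fold in AGN, which brought the conditions to one level at D10. Tpm1 rose 1.6-fold and 1.32-fold.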

How the results depend on the processing

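Alternatives tried were normalization by library size alone or by DESeq2 size factors, a filter of 1 CPM in at least 3 libraries or none, a fit that is not robust, the replicate number as a block, a fit of the compared groups only (not made for the interaction over 5 days), DESeq2, and each library left out in turn. Leaving out CD1530 D6.75 replicate 1 and AGN D8.5 replicate 1 together was added after the data were seen. The count of members called moved by over 1.5 times for CD1530 against AGN at D6.25 alone. It was 1, and 0 under library size only, the fit that is not robust and the replicate block, and from 0 to 1 with 1 library left out. Its 1 call, Acta2 at -0.24, had an adjusted p of 0.0574 under the replicate block (edgeR), which changed no other call of a member. Scaling by library size moved the all-gene median (log2 fold change) to -0.13 and -0.11 for D10 against D8.5 in CD1530 and AGN and to -0.15 for D10 against PM in AGN, and changes of members are relative to those.

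Of 190 gene results, the direction and the call stayed as given in 189 with DESeq2 size factors, 185 with library size only, 190 under each filter setting, 189 in the fit that is not robust, 188 with DESeq2 and 182 without both libraries, in 155 of 162 in the fit of the compared groups and in 1383 of 1440 with 1 library left out. Signs turned only where no call had been made. With library size only, Tagln between the conditions at D8.5 was 0.02, Myh11 at D6.25 against PM in CD1530 0.03 and Des from D7.5 to D8.5 in AGN -0.07. In the fit of the compared groups the D8.5 to D10 interaction was 0.02 for Cnn1 and 0.01 for Cald1. Without both libraries named above, Cald1 and Tpm2 between the conditions at D6.75 were 0.01 and -0.04, Tagln from D6.25 to D6.75 in CD1530 -0.10, Des from D7.5 to D8.5 in AGN -0.05 and the interaction of Cnn1 0.06. With 1 library left out the ranges that crossed 0 were, between the conditions, -0.76 to 0.67 for Actg2 at D6.25, -0.86 to 0.08 for Actg2, -0.08 to 0.01 for Cald1 and -0.04 to 0.16 for Tpm2 at D6.75, and -0.18 to 0.13 and -0.12 to 0.11 for Tagln at D7.5 and D8.5. Against PM at D6.25 they were -0.33 to 0.17 for Myh11 in CD1530 and -0.78 to 0.5 for Tagln in AGN. From D6.25 to D6.75 they were -0.55 to 0.47 for Actg2 and -0.1 to 0.46 for Tagln in CD1530, and -0.37 to 0.98 for Actg2 and -0.51 to 0.56 for Myh11 in AGN. From D7.5 to D8.5 the range for Des in AGN was -0.05 to 0.09, and for the D8.5 to D10 interaction it was -0.01 to 0.03 for Acta2 and -0.07 to 0.06 for Cnn1. The cause of these turns was not tested. Actg2, Tagln and Myh11 had at most 13 counts per library at D6.25 and D6.75, which limits what could be detected there: of their differences at these days, those of Tagln named in the report were called and no other.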
